A study of Mus musculus with 10 samples.

Results

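The 42 genes described here make up the stress response run by the transcription factor Atf4 and the unfolded protein response of the endoplasmic reticulum (ER). They were taken by gene symbol from a table of 39017 genes and fall into an ATF4 branch of 23 genes (Atf4 to Sesn2) and an ER chaperone branch of 19 genes (Atf6 to Xbp1). RNA was sequenced from 10 mouse lung tumors, 5 labelled KP (the control group) and 5 labelled KPG1, in which Slc2a1, which encodes the glucose transporter Glut1, was floxed on both copies in addition. All mice were males on a C57BL/6 background, and every tumor, control or not, was started by an adenovirus that expressed Cre from the SPC promoter, so that the recombined cells were meant to be those that make surfactant protein C. Tumors were taken 18 weeks and 6 days later, dissected from the lung, dissociated, and freed of cells with the leukocyte marker CD45 on a magnetic column. One label gives the control mice a heterozygous floxed Slc2a1 and another gives wild type, so the controls may have lost 1 copy of the gene. The engineered alleles that start the tumors are not reported here.

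Cells answer several kinds of stress by phosphorylating the translation initiation factor eIF2. The kinases are Eif2ak3 (PERK, for unfolded protein in the ER), Eif2ak4 (GCN2, for missing amino acids), Eif2ak2 (PKR, for double-stranded RNA) and Eif2ak1 (HRI, for lack of heme and mitochondrial stress). Bulk translation then falls while Atf4 protein is made, and Atf4 switches on genes of amino acid synthesis and transport, of feedback and of cell death. In the ER, Ern1 (IRE1) splices the messenger of Xbp1 and Atf6 is cut to release a transcription factor, and both raise the chaperones of the organelle. Hspa5, the most studied of these chaperones, was named as a glucose-regulated protein because cells starved of glucose make more of it. The comparison of KPG1 with KP asks how the messengers of both programs differ in tumors in which a glucose transporter was targeted.

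Promoters among the members carry matches to known elements, which are shown because both branches are known to be switched on through elements of these kinds. Only letters were matched, and the use of these sites was not tested. All come from RefSeq windows on GRCm38.p6 that reach from 250 bases before to 50 bases after the start of transcription, and 38 of the 42 members had at least 1, with 42 windows among them since some genes have several starts (no window was matched for Atf6, Hyou1, Manf and Ppp1r15b). The ER stress response element, read by Atf6 and Xbp1 together with the CCAAT-binding factor, was searched on both strands as CCAAT, 9 bases of any kind and CCACG. It was in 39 of 32851 promoter windows of all genes (0.119%), and in 7 of the 16 windows of the ER chaperone branch against 0 of the 26 of the ATF4 branch. These 7 are shown with the element in capitals and with 20 bases on each side, 5′ to 3′ on the strand of the gene. Calr and Creld2 hold it in the opposite orientation.
Hspa5, chr2:34772005-34772063, plus strand: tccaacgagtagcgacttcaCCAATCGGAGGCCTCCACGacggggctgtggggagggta
Calr, chr8:84847055-84847113, minus strand: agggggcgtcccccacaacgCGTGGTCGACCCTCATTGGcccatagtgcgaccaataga
Hsp90b1, chr10:86705618-86705676, minus strand: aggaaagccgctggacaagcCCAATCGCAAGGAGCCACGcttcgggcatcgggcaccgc
Canx, chr11:50325780-50325838, minus strand: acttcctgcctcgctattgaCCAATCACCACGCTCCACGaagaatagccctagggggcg
Pdia6, chr12:17266471-17266529, plus strand: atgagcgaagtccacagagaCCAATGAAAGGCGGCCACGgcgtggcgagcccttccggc
Dnajc3, chr14:118937807-118937865, plus strand: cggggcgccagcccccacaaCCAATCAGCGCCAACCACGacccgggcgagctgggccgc
Creld2, chr15:88819500-88819558, plus strand: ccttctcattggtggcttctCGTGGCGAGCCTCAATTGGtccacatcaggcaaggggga

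Hsp90b1 held a second copy of this element nearer its start. A shorter variant, ATTGG, 1 base of any kind and CCACG, was in 12 of all windows (0.0365%), among them those of Dnajb11 and Herpud1. The element that Xbp1 reads alone, TGACGTGG, was in 222 of all windows (0.676%) and in none of the 42 windows of members.

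The core of the C/EBP-ATF response element, the site that Atf4 binds with a C/EBP partner, was searched as TGATGNAA on both strands. It was far more common, in 1304 of all windows (3.97%), and 5 of the 26 windows of the ATF4 branch held it, as did that of Herpud1. The 5 are shown in the same way, with the core in capitals and up to 20 bases on each side. In Chac1, Trib3 and Fgf21 the core lies on the other strand and therefore reads TTGCATCA or TTACATCA.
Asns, chr6:7693210-7693252, minus strand: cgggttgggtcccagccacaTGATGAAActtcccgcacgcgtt
Trib3, chr2:152344020-152344049, minus strand: ggtTTACATCAgccgggcggggatccgagc
Chac1, chr2:119351029-119351076, plus strand: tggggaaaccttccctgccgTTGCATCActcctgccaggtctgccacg
Pycr1, chr11:120643824-120643871, minus strand: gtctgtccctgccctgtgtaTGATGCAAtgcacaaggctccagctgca
Fgf21, chr7:45615602-45615649, minus strand: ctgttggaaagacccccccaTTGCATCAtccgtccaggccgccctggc

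The last promoter shown is that of Ppp1r15a, the member with the smallest p-value. The 120 bases before its start held a full cyclic AMP response element, TGACGTCA, in capitals, a motif that was added to the search after the values had been seen. It was in 588 of all windows (1.79%) and in that of no other member.
Ppp1r15a, chr7:45526269-45526388, minus strand: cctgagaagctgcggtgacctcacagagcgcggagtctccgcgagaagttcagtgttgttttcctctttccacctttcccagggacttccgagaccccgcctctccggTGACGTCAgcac

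**Figure D1:**
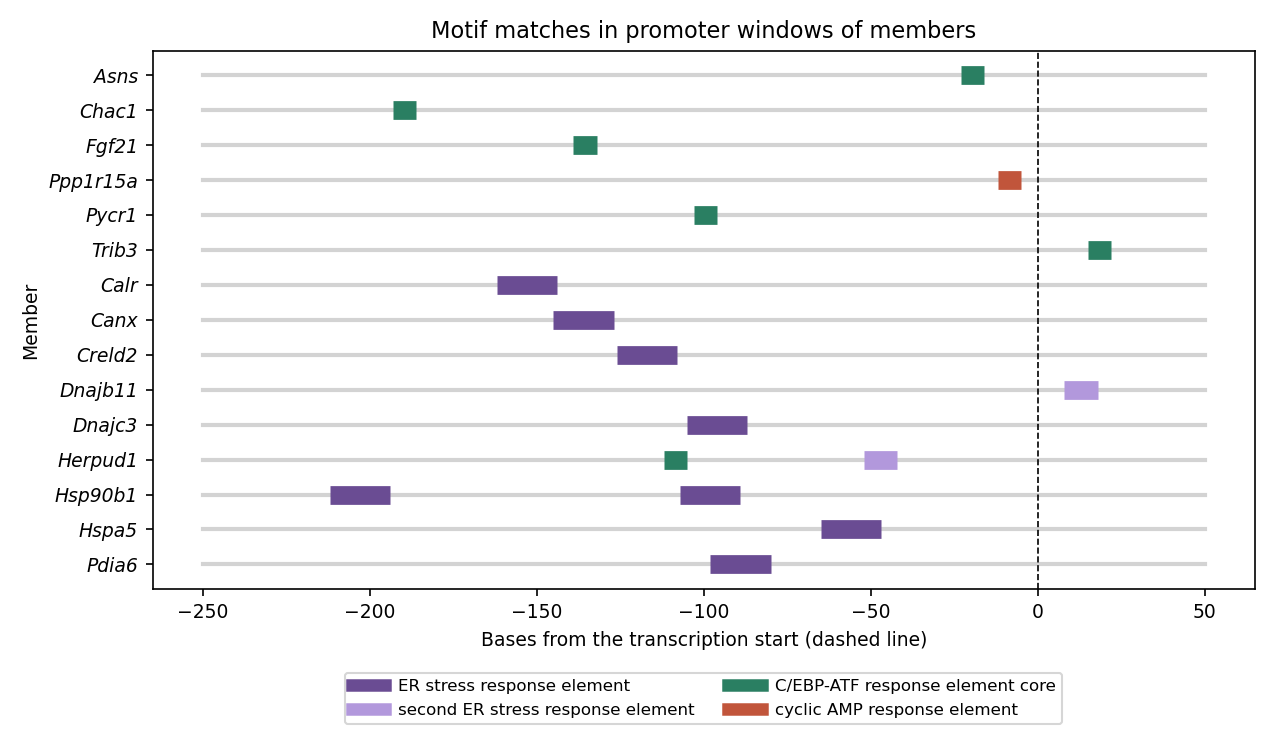
Positions of the motif matches in the promoter windows of the 15 members that held one, in bases from the start of transcription (x axis, 0 at the dashed line), one member per row and one color per motif. The ER stress response elements lie between positions -212 and -47, and the matches of Asns, Ppp1r15a, Trib3 and Dnajb11 lie between -23 and 22.

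Depth was 32427029 to 49534284 counts per library, and levels are given as CPM, which scales each library's counts to a common total with TMM factors. Tumors KP 1 and KP 5 were the ends of the first principal component. The labels number the samples, and these numbers follow the groups in part, since the KPG1 tumors carry 10, 1, 4, 5 and 9 (KPG1 1 to KPG1 5) and the KP tumors 11, 12, 15, 16 and 6 (KP 1 to KP 5). What the numbers stand for is not given in the sources used here. A fit with the number as a covariate is given beside some of the results that it moves. The targeted gene, Slc2a1, was at 71.7 to 127 CPM in KP and 40.8 to 66.8 CPM in KPG1 and did not overlap between groups (log2 fold change -1.01, SE 0.20, limma adjusted p 0.0675). The difference was the most extreme of the 252 rearrangements of the tumors (two-sided exact permutation p 0.00794, the smallest they can give). With the sample number as a covariate the log2 fold change of Slc2a1 was -0.88 (SE 0.27, limma adjusted p 0.371). Of all 16216 genes tested, 28 (0.173%) passed an adjusted p of 0.05 in limma. The labels do not say whether the tumors of a group came from separate animals, so p-values measure the spread between these tumors. In such bulk samples fewer cells of a type and less RNA per cell cannot be told apart.

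Across the 42 members no gene passed that threshold in limma. Of the 41 tested, 4 had an unadjusted p under 0.05. In the ATF4 branch these were Ppp1r15a, Gdf15 and Ddit3, all lower in KPG1, where 6.31% of all genes had such a p in that direction. In the ER chaperone branch it was Pdia4 alone, higher in KPG1, where the share of all genes was 5.26%. Of the 22 ATF4 branch genes tested, 15 were fitted lower and 7 higher, with a median log2 fold change of -0.15. Of the 19 ER chaperone branch genes, 4 were fitted lower and 15 higher, with a median of 0.13. The median over all genes tested was 0.02, and 8547 of 16216 genes were fitted higher. Groups did not overlap for 2.81% of all genes tested and for 0 of the 41 members. DESeq2 placed Ppp1r15a and Gdf15 past the adjusted threshold, where it placed 3.38% of all genes. edgeR placed 0 members there, against 0.247% of all genes, with the same 4 genes at an unadjusted p under 0.05. A limma fit with a weight per library placed Ppp1r15a, Gdf15 and Ddit3 past the adjusted threshold, where the share of all genes was 1.41%.

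**Figure D2:**
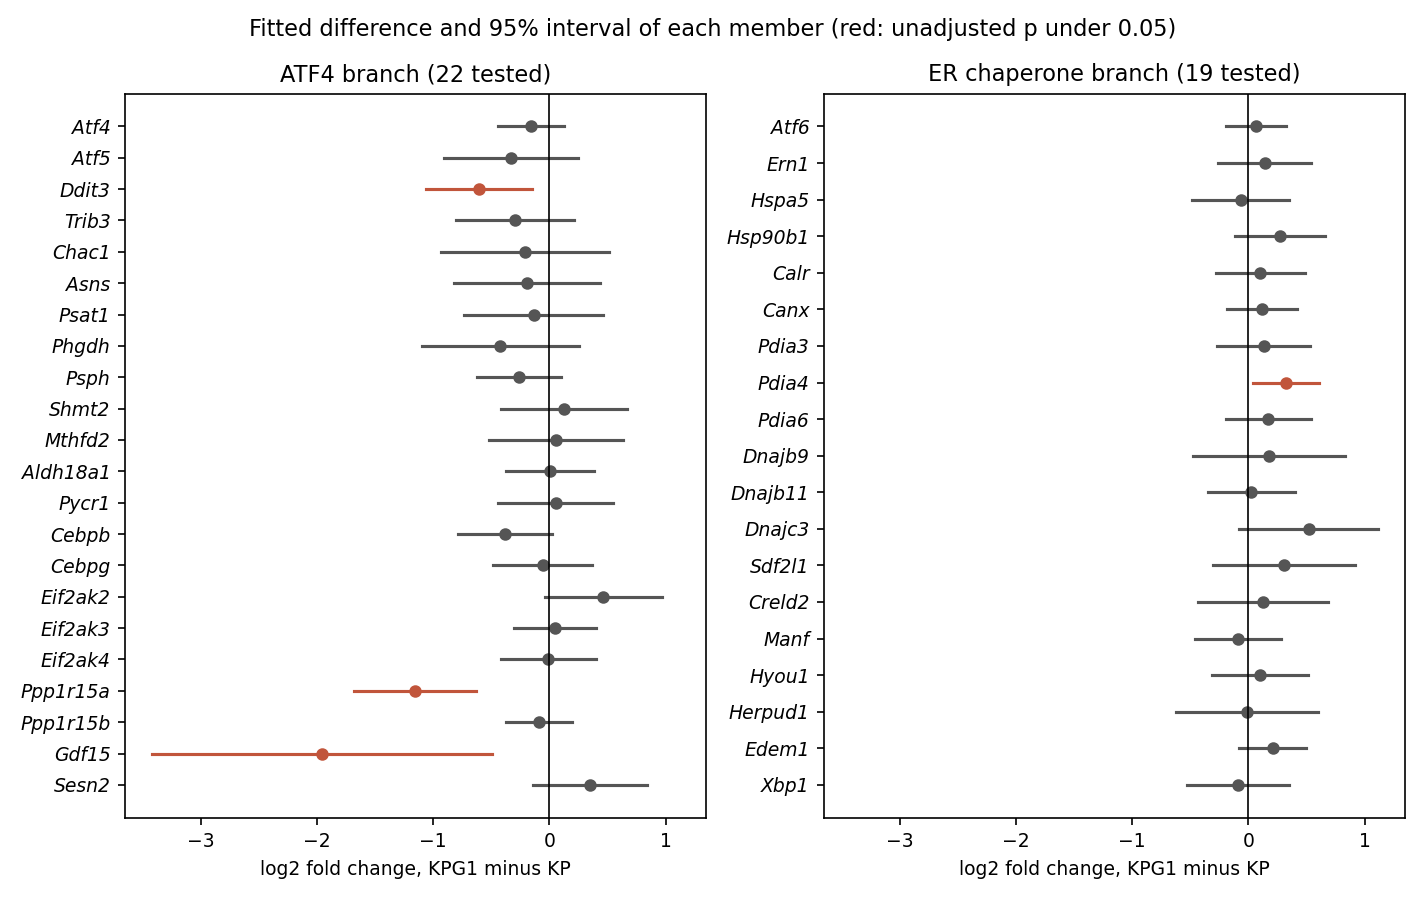
Fitted log2 fold change, KPG1 minus KP (x axis), of the 22 tested members of the ATF4 branch and the 19 of the ER chaperone branch. Points are estimates, lines are 95% intervals from limma and red marks an unadjusted p under 0.05. Ppp1r15a at -1.16 and Gdf15 at -1.96 lie to the left of the others, and the ER chaperone branch stays between -0.09 and 0.52.

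Ppp1r15a (GADD34, ENSMUSG00000040435, chromosome 7, 45522916 to 45526268, minus strand, mm10) brings a phosphatase to eIF2 and so ends the response that produced it. It was at 444, 365, 312, 379.6 and 195 CPM in KP 1 to KP 5 and 208, 129, 145, 103 and 169.9 CPM in KPG1 1 to KPG1 5. The KP tumors other than KP 5 were all above the KPG1 tumors, and KP 5 lay among them, below KPG1 1. KP averaged 339 ± 93.6 CPM (SD, n = 5), whereas the KPG1 tumors averaged 151 ± 40.3 CPM (SD, n = 5), so that KPG1 held 44.6% of the KP level. The log2 fold change was -1.16 (SE 0.24, 95% interval -1.68 to -0.63), with an unadjusted p of 0.000497 and an adjusted p of 0.0895 in limma. Without KP 5 the log2 fold change was -1.35 and the adjusted p was 0.0214. With the sample number as a covariate they were -0.68 and 0.448. The gene overlaps Tulp2 on the opposite strand, and the strand setting of the counting is not given in the sources used here. Ppp1r15b, the member of the phosphatase pair that is present without stress, was at 136 to 185 CPM in KP and 132 to 164 CPM in KPG1, with a log2 fold change of -0.09 (95% interval -0.38 to 0.19).

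Gdf15 (ENSMUSG00000038508, chromosome 8, 70629393 to 70632456, minus strand) encodes a secreted stress hormone that lowers appetite through a receptor in the hindbrain. It varied most of all members, at 126, 47.0, 69.1, 32.6 and 10.1 CPM in KP 1 to KP 5 and 8.17, 6.62, 14.6, 7.52 and 24.5 CPM in KPG1 1 to KPG1 5. Again KP 5 lay among the KPG1 tumors and the other 4 KP tumors lay above all of them, although they spread over a range of their own. Its log2 fold change was -1.96 (SE 0.67, 95% interval -3.42 to -0.49, limma unadjusted p 0.0134, adjusted p 0.300). Without KP 5 it was -2.50 with an adjusted p of 0.0333, and with the sample number as a covariate -1.18 with 0.650. Fgf21, the other hormone of the branch and one that liver secretes in fasting, had 1 to 12 counts per library, which is 0.0286 to 0.272 CPM. It fell below the filter and was not tested, and no difference was detectable at this depth.

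Ddit3 (CHOP, ENSMUSG00000025408, chromosome 10, 127290774 to 127296288, plus strand) is the transcription factor that ties lasting ER stress to cell death and is known to activate Ppp1r15a. It was at 18.0, 22.3, 27.4, 20.8 and 13.7 CPM in KP 1 to KP 5 and 16.2, 10.7, 11.2, 12.1 and 15.5 CPM in KPG1 1 to KPG1 5. The 4 KP tumors above all KPG1 tumors were again KP 1 to KP 4. The log2 fold change was -0.61 (SE 0.21, 95% interval -1.06 to -0.15, limma unadjusted p 0.0138, adjusted p 0.302). It was -0.76 (adjusted p 0.0651) without KP 5 and -0.14 (adjusted p 0.850) with the sample number as a covariate. The locus is crowded, with Mars on the opposite strand and a short second gene model of the same name on the same strand, so its count is uncertain.

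**Figure D3:**
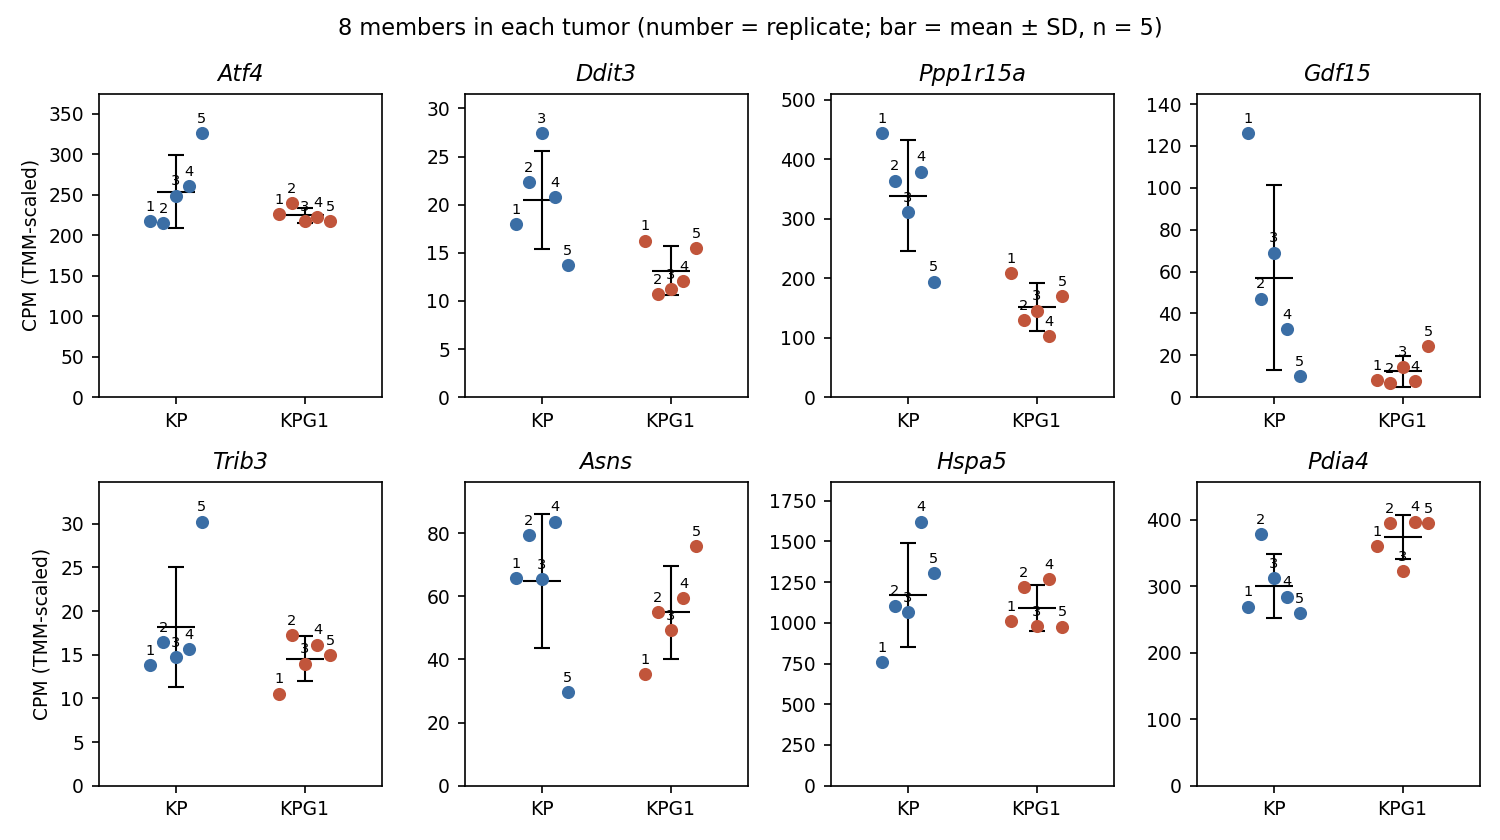
Level in CPM (y axis, from 0) of 8 members in each KP and KPG1 tumor. Points carry the replicate number, and bars are mean ± SD (n = 5). For Ddit3, Ppp1r15a and Gdf15 the points KP 1 to KP 4 lie above all KPG1 tumors and KP 5 lies among these, whereas KP 5 is the highest point for Atf4 and Trib3 and the lowest for Asns.

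Atf4 itself (chromosome 15, 80255184 to 80257541, plus strand) was the most abundant member of its branch per length over all tumors, with a mean of 343 TPM (TPM divides counts by exon length before scaling). In KP alone Ppp1r15a was above it, at 397 against 362 TPM, and in KPG1 below it, at 174 against 323 TPM. The level of Atf4 was 217, 215, 249, 261 and 326 CPM in KP 1 to KP 5 and 226, 239, 217, 222 and 217 CPM in KPG1 1 to KPG1 5. The 5 KPG1 tumors lay close together inside the wider KP range, with KP 5 on top. The log2 fold change was -0.16 (95% interval -0.44 to 0.12, limma adjusted p 0.668), and since Atf4 is governed mainly by translation, its messenger does not report how much protein was made. The other factors of the branch were fitted lower as well, which made 5 of 5 with Ddit3 counted. Cebpb, a dimer partner, was at 8.03 to 11.2 CPM in KP and 4.98 to 8.17 CPM in KPG1 and its log2 fold change was -0.38 (adjusted p 0.455). Atf5, a relative that is translated under the same stress, had -0.33 (adjusted p 0.660), and the partner Cebpg had -0.06 (adjusted p 0.931). Neither set of tumors was separated from the other for any of these 4 genes.

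Among the eIF2 kinases Eif2ak3 was at 64.7, 60.3, 62.7, 51.7 and 88.9 CPM in KP 1 to KP 5 and 56.8, 72.4, 68.2, 81.2 and 58.7 CPM in KPG1 1 to KPG1 5. Its groups overlapped almost fully, with a log2 fold change of 0.05 (95% interval -0.30 to 0.40, limma adjusted p 0.932). Eif2ak4 had -0.01 (adjusted p 0.990). Eif2ak2, which interferon also induces, was at 33.9 to 81.2 CPM in KP and 48.3 to 73.1 CPM in KPG1. Its log2 fold change was 0.46 (95% interval -0.04 to 0.97, adjusted p 0.469), and KP 5 was the highest tumor of all.

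Trib3, a pseudokinase that Atf4 induces and that restrains Atf4 in turn, was at 13.8, 16.5, 14.7, 15.6 and 30.2 CPM in KP 1 to KP 5 and 10.5, 17.2, 13.96, 16.1 and 14.9 CPM in KPG1 1 to KPG1 5. Only KP 5 stood apart, and it stood above the rest. Its log2 fold change was -0.29 (95% interval -0.80 to 0.22, limma adjusted p 0.658), -0.09 without KP 5 and -0.79 with the sample number as a covariate. Chac1, which breaks down glutathione, was at 3.14, 3.39, 4.21, 5.64 and 1.65 CPM in KP 1 to KP 5 and 2.08, 3.05, 3.47, 3.77 and 2.44 CPM in KPG1 1 to KPG1 5, low for the branch. Per length its mean of 6.86 TPM was near that of Pycr1 (6.46 TPM) and Psph (7.65 TPM). Here KP 5 was the lowest tumor, and the log2 fold change was -0.21 (adjusted p 0.847), and -0.49 without that tumor. Sesn2, which holds back the growth kinase mTORC1, ranged over 12.3 to 29.2 CPM in KP and 22.7 to 31.5 CPM in KPG1. It was fitted higher by 0.35 on the log2 scale (adjusted p 0.579), with KP 1 as the lowest tumor, and by 0.12 without it.

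The 8 enzymes that make serine, glycine, one-carbon units, proline and asparagine were divided. Of these, 4 were fitted higher, 4 lower and 0 had an unadjusted p under 0.05, and their log2 fold changes ran from -0.42 for Phgdh to 0.13 for Shmt2. Asns, which makes asparagine, was at 65.8, 79.3, 65.3, 83.6 and 29.6 CPM in KP 1 to KP 5 and 35.3, 55.0, 49.3, 59.3 and 75.8 CPM in KPG1 1 to KPG1 5. The lowest tumors were KP 5 and KPG1 1, one of each group, and the log2 fold change was -0.19 (95% interval -0.82 to 0.43, limma adjusted p 0.835). It was -0.47 without KP 5 (adjusted p 0.226) and -0.06 without KPG1 1. In the serine pathway Phgdh (first step) was at 26.3 to 70.8 CPM in KP and 19.0 to 45.3 CPM in KPG1, Psat1 (second step) at 66.3 to 148 CPM in KP and 60.5 to 144 CPM in KPG1, and Psph (last step) at 8.81 to 12.1 CPM in KP and 7.14 to 10.3 CPM in KPG1. Psph had a log2 fold change of -0.26 (adjusted p 0.564) and Psat1 of -0.14 (adjusted p 0.881). Phgdh has 9 processed pseudogenes with at least 95% identity, of which Gm5847 took up to 677 counts in a library, so its level is uncertain. The mitochondrial folate enzymes Shmt2 and Mthfd2 and the proline enzymes Aldh18a1 and Pycr1 had log2 fold changes of 0.13, 0.06, 0.01 and 0.05, each with a 95% interval on both sides of 0. With the sample number as a covariate Mthfd2 was fitted higher with an unadjusted p under 0.05 in limma. Its log2 fold change reached 0.63 over the settings run.

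In the ER chaperone branch the groups overlapped for the sensor genes Atf6 and Ern1 and for Xbp1, the factor whose messenger Ern1 splices. Atf6 was at 91.7, 119, 119, 107 and 114 CPM in KP 1 to KP 5 and 121, 122, 96.9, 112 and 123 CPM in KPG1 1 to KPG1 5. The tumor with the lowest level was KP 1, and the log2 fold change was 0.06 (95% interval -0.19 to 0.32, limma adjusted p 0.868). Ern1 was at 84.0, 153, 132, 89.2 and 113 CPM in KP 1 to KP 5 and 113, 125, 98.6, 135 and 148 CPM in KPG1 1 to KPG1 5. KP held both the lowest and the highest of these tumors, with a log2 fold change of 0.14 (adjusted p 0.813). Xbp1 was at 130.1, 241, 218, 242 and 256 CPM in KP 1 to KP 5 and 238, 231, 149.9, 193 and 197 CPM in KPG1 1 to KPG1 5. KP 1 and KPG1 3 were the low tumors, and the log2 fold change was -0.09 (95% interval -0.53 to 0.35, adjusted p 0.896), or -0.26 without KP 1. Counts per gene do not separate the spliced from the unspliced messenger of Xbp1, so the activity of Ern1 was not measured.

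The chaperones were the most abundant members. Per length, Calr led with a mean of 1219.6 TPM over all tumors, followed by the disulfide isomerase Pdia3 with 1109.6 TPM, Hspa5 with 904 TPM and Hsp90b1 with 838 TPM. Hspa5 (BiP, chromosome 2, 34771970 to 34777547, plus strand) was at 758, 1106, 1066, 1621 and 1303 CPM in KP 1 to KP 5 and 1009.8, 1217, 980.3, 1266 and 977 CPM in KPG1 1 to KPG1 5. Both the lowest tumor, KP 1, and the highest, KP 4, belonged to KP, and the KPG1 tumors lay between them. KP averaged 1171 ± 319 CPM (SD, n = 5), whereas the KPG1 tumors averaged 1089.9 ± 140.0 CPM (SD, n = 5), with a log2 fold change of -0.07 (95% interval -0.48 to 0.35, limma adjusted p 0.920). Without KP 1 it was -0.21 and without KP 4 0.06. Hsp90b1, Calr, Canx and Hyou1 were fitted higher by 0.28, 0.10, 0.12 and 0.10 on the log2 scale, with adjusted p-values of 0.579, 0.859, 0.780 and 0.876. Hsp90b1 and Canx were lowest in KP 1, at 572 and 313 CPM, while the other KP tumors held at least 964 and 413 CPM, and without KP 1 their log2 fold changes were 0.12 and 0.03.

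Pdia4 (ENSMUSG00000025823, chromosome 6, 47796141 to 47813430, minus strand), a disulfide isomerase of the ER, was the member of this branch with an unadjusted p under 0.05. It was at 269, 378, 312, 284 and 259 CPM in KP 1 to KP 5 and 360.4, 395, 323, 397 and 395 CPM in KPG1 1 to KPG1 5. Of the KP tumors only KP 2 reached the KPG1 range, and KPG1 3 was the low tumor of its group. KP averaged 301 ± 47.8 CPM (SD, n = 5), whereas the KPG1 tumors averaged 374 ± 32.5 CPM (SD, n = 5). The log2 fold change was 0.32 (SE 0.13, 95% interval 0.04 to 0.61, limma unadjusted p 0.0301, adjusted p 0.373). Its unadjusted p was no longer under 0.05 without KP 5, when Dnajc3, Pdia6 and Dnajb9 passed instead, or with a weight per library, when Dnajc3 did, and no member of the branch passed without KP 1, without KP 4 or without any 1 of the KPG1 tumors other than KPG1 3. Pdia6 and Pdia3 were fitted higher by 0.17 and 0.13, with intervals on both sides of 0.

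Dnajb9, a cochaperone that Xbp1 induces, was at 67.4, 70.5, 36.5, 57.5 and 152 CPM in KP 1 to KP 5 and 67.5, 79.5, 80.3, 92.3 and 70.6 CPM in KPG1 1 to KPG1 5. The KPG1 tumors were close to each other, whereas KP held the lowest value in KP 3 and the highest in KP 5 (log2 fold change 0.18, limma adjusted p 0.859). It was 0.45 without KP 5 and -0.48 with the sample number as a covariate. Dnajc3, a cochaperone that also restrains eIF2 kinases, had the largest fitted increase of the branch, 0.52 (95% interval -0.08 to 1.12, adjusted p 0.494). It was at 101 to 307 CPM in KP and 173 to 269 CPM in KPG1, and KP 5 was above every KPG1 tumor and without it the log2 fold change was 0.76. Dnajb11 had 0.03 (adjusted p 0.967). The small lumenal or secreted factors Sdf2l1, Creld2 and Manf had log2 fold changes of 0.31, 0.13 and -0.09, and their adjusted p-values were 0.706, 0.882 and 0.878. Of the genes that dispose of misfolded protein, Edem1 had 0.21 (adjusted p 0.575) and Herpud1 -0.01 (adjusted p 0.990). The 7 genes shown above with an ER stress response element had log2 fold changes from -0.07 for Hspa5 to 0.52 for Dnajc3, and the 5 with a C/EBP-ATF core included the untested Fgf21 and 4 genes between -0.29 and 0.05.

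The spread between tumors was read as the SD of log2 CPM. It was larger in KP than in KPG1 for 18 of the 22 ATF4 branch genes (81.8%) and for 18 of the 19 ER chaperone branch genes (94.7%), where the share over all genes tested was 73.5%. KP 1 was the lowest of the 10 tumors for 12 of the 19 ER chaperone branch genes (63.2%), against 16.7% of all genes. In the ATF4 branch KP 4 was the highest tumor for 8 of 22 genes (36.4%, against 10.7% of all genes) and KP 5 for 7 (31.8%, against 22.2%), and KPG1 1 was the lowest for 7 (31.8%, against 12.5%). The mean deviation of log2 CPM from each gene's mean over the tumors puts this in 1 value per tumor. For the ER chaperone branch it was -0.50 in KP 1 and between -0.02 and 0.11 in the other KP tumors, and in KPG1 it was -0.21 in KPG1 3 and between 0.08 and 0.18 elsewhere. Without KP 1 and KP 5, which was tried after the data had been seen, the median log2 fold change of this branch was -0.01 instead of 0.13, and without KP 1 alone it was 0.03, with 12 members fitted higher and 7 lower. The median of the ATF4 branch without both tumors was -0.21. It then had 7 members with an unadjusted p under 0.05, which were Ppp1r15a, Gdf15, Ddit3, Cebpb, Asns and Chac1, all fitted lower, and Eif2ak2, fitted higher. The share of all genes with such a p was 16.6% in that fit and 11.6% with all tumors.

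**Figure D4:**
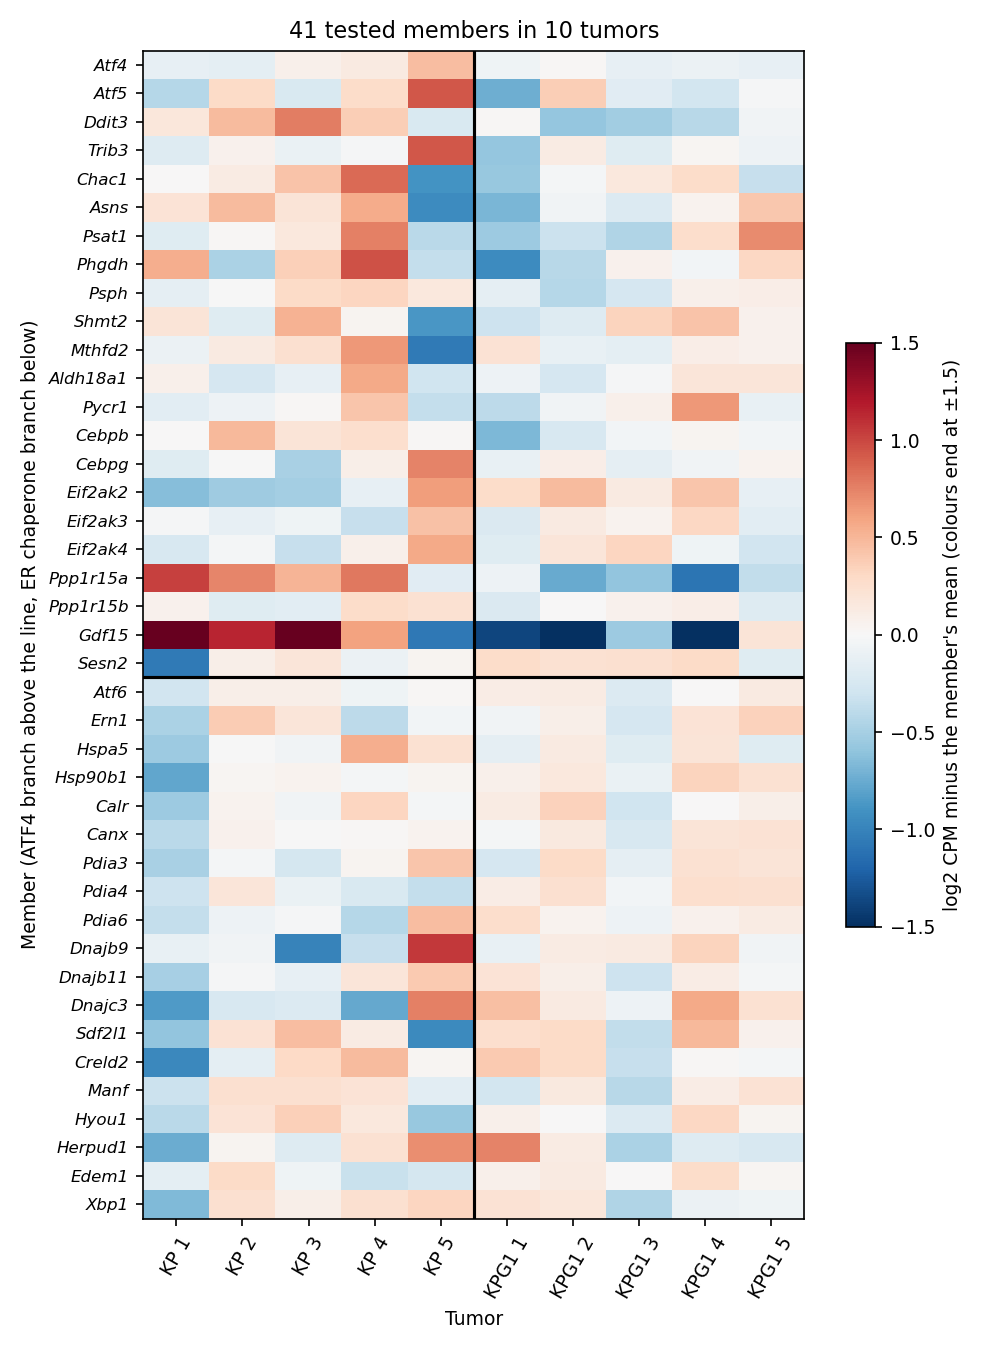
Log2 CPM minus the member's mean over the 10 tumors (color, red above and blue below the mean, ends at ±1.5) for the 41 tested members (rows) in each tumor (columns), with the ATF4 branch above the horizontal line. KP 1 is blue across most of the ER chaperone branch, and KP 5 is the highest of the 10 tumors in 7 (31.8%) and the lowest in 5 (22.7%) of the 22 ATF4 branch rows, where the shares over all genes are 22.2% and 20.2%.

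Ddit3, Ppp1r15a and the Atf4 target Atf3 also belong to the genes that cells switch on soon after many stimuli, and a list of 20 other such genes was set beside them. The list was chosen with earlier results of these data known, so its counts are a description and no independent support. Of the 20 genes, 14 had an unadjusted p under 0.05 and all 14 were lower in KPG1, where the share of all genes was 6.31%. The median log2 fold change over the list was -1.07. Ier3 (-1.07, adjusted p 0.0240) and Fosb (-1.82, adjusted p 0.0464) passed the adjusted threshold in limma, where the share of all genes was 0.173%. In edgeR, with a share of 0.247%, 2 genes of the list did so, and in DESeq2, with 3.38%, 10 did so. In limma 12 did so with a weight per library, 10 without KP 5 and 0 with the sample number as a covariate, where the shares of all genes were 1.41%, 1.78% and 0.0493%. When single tumors were left out, Ier3 stayed past the threshold without KP 2, KP 5 or KPG1 1 and Fosb without KP 5, and each lost it when any other tumor was left out. Fosb was at 1093 to 2609 CPM in KP and 258 to 699 CPM in KPG1, and Ier3 at 141 to 196 CPM in KP and 65.0 to 104 CPM in KPG1. The mean deviation of the list was 0.71, 0.81, 0.80, 0.45 and -0.26 in KP 1 to KP 5 and 0.02, -0.76, -0.65, -0.97 and -0.13 in KPG1 1 to KPG1 5. In the mean of this list KP 5 was thus the low tumor of its group as it was for Ppp1r15a, Ddit3 and Gdf15. KPG1 1 and KPG1 5 were the high tumors of theirs in that mean as they were for Ppp1r15a and Ddit3. Single genes of the list differed. KP 5 was the highest KP tumor for Egr1, Hspa1a and Hspa1b, at 2126, 475 and 442 CPM. KP 4 was the lowest KP tumor for Fos and Jun, at 1576 and 614 CPM. For Gdf15 the high KPG1 tumors were KPG1 5 and KPG1 3. KP 5 is also the KP tumor with the lowest sample number, and KPG1 1 and KPG1 5 are the KPG1 tumors with the highest. The part of these genes and of the sample number in the values of Ppp1r15a, Ddit3 and Gdf15 was not tested.

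**Figure D5:**
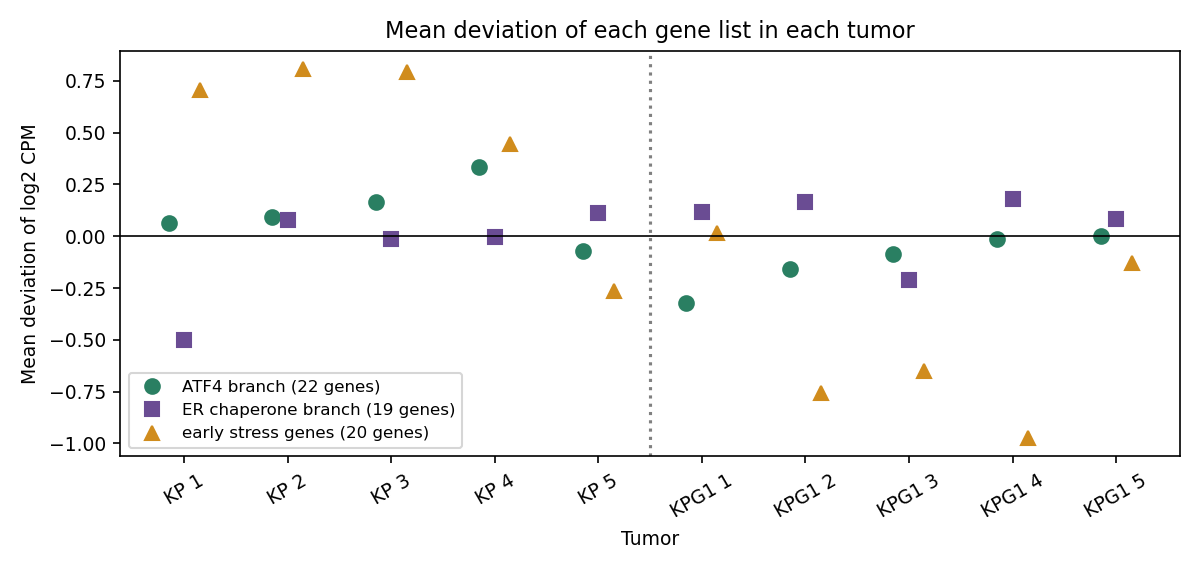
Mean deviation of log2 CPM from each gene's mean over the 10 tumors (y axis) for the ATF4 branch (22 genes), the ER chaperone branch (19 genes) and the early stress genes (20 genes) in each tumor (x axis). The early stress genes span -0.97 to 0.81, and the ER chaperone branch is lowest in KP 1, at -0.50.

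Other genes known as Atf4 targets were read from a list of 36, all tested and also chosen with earlier results known. Of these, 22 were fitted lower and 14 higher. Lower in KPG1 with an unadjusted p under 0.05 were 6, where the share of all genes was 6.31%. With all tumors 0 passed the adjusted threshold in limma or edgeR and 1, Atf3, in DESeq2, where 3.38% of all genes passed. Atf3, a factor that Atf4 induces and that dampens stress transcription, was at 1633, 1282, 1315, 1286 and 324 CPM in KP 1 to KP 5 and 691, 166, 166, 117 and 499 CPM in KPG1 1 to KPG1 5. KP 1 to KP 4 lay above all KPG1 tumors and KP 5 did not, and the log2 fold change was -2.01 (SE 0.56, adjusted p 0.222 in limma). It passed without KP 5 (-2.44, adjusted p 0.0436) and with a weight per library (-2.62, adjusted p 0.0317), and was -0.63 (adjusted p 0.689) with the sample number as a covariate. Cars, the cysteine tRNA synthetase, was at 57.6 to 100.1 CPM in KP and 43.6 to 57.4 CPM in KPG1 without overlap (log2 fold change -0.48, adjusted p 0.276). Slc7a1, which imports arginine and lysine, was at 71.9 to 129.8 CPM in KP and 49.1 to 71.2 CPM in KPG1, also without overlap (log2 fold change -0.55, adjusted p 0.302). The remaining 3 were Eif4ebp1, a brake on cap-dependent translation, with -0.46, Bbc3 (PUMA), which triggers apoptosis, with -0.47, and Wars, the tryptophan tRNA synthetase, with -0.31. The 12 tRNA synthetase genes of the list were split, with 6 fitted higher and 6 lower.

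The machinery around eIF2 itself, 14 genes with the subunits of eIF2 and of its exchange factor eIF2B and the kinase Eif2ak1, had 0 members with an unadjusted p under 0.05 in limma, edgeR or DESeq2. Their log2 fold changes ran from -0.30 for Impact, which restrains Eif2ak4, to 0.18 for Eif2b4. The 10 genes of mitochondrial protein stress, such as the chaperones Hspd1 (0.12) and Hspa9 (-0.20), also had 0 in these 3 tools, with a median of 0.02.

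Further ER genes were read from lists outside the members, and 11.6% of all genes had an unadjusted p under 0.05 in limma. The share was 5.88% for ER-associated degradation and 11.1% for other ER folding genes. It was 6.25% for the ER translocon and 18.2% for further ER stress sensors. Of 17 tested genes of ER-associated degradation, 15 were fitted higher, with a median log2 fold change of 0.10, and 1 had an unadjusted p under 0.05. This was Edem3, which trims mannose from misfolded glycoproteins to mark them for disposal. Edem3 was at 67.1, 84.2, 84.5, 85.3 and 93.6 CPM in KP 1 to KP 5 and 109, 142, 117, 141 and 124 CPM in KPG1 1 to KPG1 5. Every KPG1 tumor was above every KP tumor, and the log2 fold change was 0.61 (SE 0.13, 95% interval 0.34 to 0.89), with an adjusted p of 0.0862 in limma and of 0.000775 in DESeq2. In limma it was 0.0346 without KP 5, 0.0207 with a weight per library and 0.401 with the sample number as a covariate. Its relative among the members, Edem1, had 0.21 (adjusted p 0.575).

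Of 27 other ER folding genes tested, 18 were fitted higher and 3 had an unadjusted p under 0.05, and 0 passed the adjusted threshold in limma, edgeR or DESeq2. Ero1lb, an oxidase that recharges disulfide isomerases, was at 9.21 to 17.9 CPM in KP and 16.3 to 25.0 CPM in KPG1 (log2 fold change 0.64, limma adjusted p 0.239). Uggt1, which returns misfolded glycoproteins to the calnexin cycle, was at 114 to 148 CPM in KP and 151 to 183 CPM in KPG1 without overlap (log2 fold change 0.28, adjusted p 0.375). Cdnf, the relative of Manf, was low throughout, at 1.21 to 2.07 CPM in KP and 0.634 to 1.27 CPM in KPG1 (log2 fold change -0.73, adjusted p 0.337). Of 16 tested genes of the ER translocon and signal peptidase, 12 were fitted higher, and Ssr1, a subunit of the translocon-associated complex, was the gene with an unadjusted p under 0.05 (log2 fold change 0.36, adjusted p 0.322). Of 11 further ER stress sensors and their processing enzymes, 7 were fitted higher and 2 had such a p. Creb3l2, a membrane-bound factor of secretory cells, had 0.41 (adjusted p 0.262), and Creb3l3, its relative best known from liver and gut, had -2.04 at a level of at most 7.12 CPM (adjusted p 0.239). Creb3l3 passed the adjusted threshold in DESeq2 (-2.39, adjusted p 0.00108) and in limma without KP 5 (-2.50, adjusted p 0.0397).

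The make-up of the samples was read from marker genes of each cell type. Of all genes tested, 5.26% were higher and 6.31% lower in KPG1 with an unadjusted p under 0.05 in limma. The markers of alveolar type 2 cells, the labelled origin, were high, with Sftpc at 5369.8 to 19893 CPM in KP and 17478 to 40180.0 CPM in KPG1. All 8 of these markers were fitted higher in KPG1, 3 with an unadjusted p under 0.05 (Sftpc 1.22, Abca3 0.97 and Slc34a2 1.00). Their summed level was 18188 to 61968 CPM in KP and 47668 to 86616 CPM in KPG1, and the lowest sum was that of KP 1, the tumor lowest in most of the ER chaperone branch. Of 6 epithelial markers, 2 were fitted higher and 4 lower. The keratins Krt8 (-0.67), Krt18 (-0.87) and Krt19 (-0.79) were lower with an unadjusted p under 0.05, while Epcam had 0.05, Cdh1 -0.10 and Nkx2-1 0.33. Alveolar type 2 cells secrete large amounts of protein through the ER, and the part of these differences in the values of the ER chaperone branch was not tested.

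Of 7 markers of plasma cells, which hold much ER, Mzb1 was at most 0.243 CPM, Tnfrsf17 at most 0.0314 CPM and Igj at most 0.924 CPM in any tumor. The other 4 were tested and 0 had an unadjusted p under 0.05 in limma. These were Sdc1, which epithelium also expresses, at 736 to 1489 CPM in KP and 964 to 1118 CPM in KPG1, Prdm1 at 7.10 to 16.9 CPM in KP and 8.26 to 30.9 CPM in KPG1, Derl3 at 1.70 to 9.29 CPM in KP and 4.69 to 6.89 CPM in KPG1 and Irf4 at 0.276 to 3.62 CPM in KP and 0.385 to 1.05 CPM in KPG1. The summed level of the 7 was 756 to 1498 CPM in KP and 984 to 1155 CPM in KPG1. Ptprc, the gene of CD45, was at 5.21 to 9.98 CPM in KP and 5.42 to 10.97 CPM in KPG1. Of 7 leukocyte markers tested, 3 were fitted higher and 4 lower, with S100a8 (-1.84) and Itgam (-1.04) lower without overlap. All 6 endothelial and all 6 fibroblast markers were fitted higher, with an unadjusted p under 0.05 for 1 of these 12, the fibroblast gene Dcn (0.75). Their summed levels were 215 to 611 CPM and 93.8 to 253 CPM in KP and 328 to 955 CPM and 159 to 269 CPM in KPG1. Of 3 club cell and 5 ciliated cell markers 1 each had an unadjusted p under 0.05, Cyp2f2 (2.11) and Foxj1 (-1.19). The other 2 club cell markers, Scgb1a1 (-0.18) and Scgb3a2 (-0.12), were fitted lower. Of the ciliated cell markers 2 were fitted higher, with Ccdc39 at 0.58, and 3 lower. The part of these cells in the values of the members was not tested.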

How the data were processed

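RNA from the CD45-negative fraction of 10 tumors (5 KP, 5 KPG1, grouped by the labels) was sequenced from one end after a stranded mRNA preparation from 500 ng. Per the labels' processing notes the authors used bcl2fastq 2.17, cutadapt 1.4.2, HISAT2, featureCounts 1.4.4 and edgeR on mm10. The strand setting and the annotation release of the counting are not given in the sources used here. The deposited counts are whole reads per Ensembl gene, not normalized, so that longer genes and genes with near-identical copies gain or lose reads. The deposited log2 values, which the authors computed with TMM factors and voom, were used only to check the counts. The joint count table and the files of the single libraries held the same 390170 values.

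The filter filterByExpr of edgeR 4.0.16 left 16216 genes, which were fitted with voom and limma 3.58.1 in R 4.3.3, with TMM factors, genotype as the only term, and Benjamini-Hochberg adjustment over all genes tested (threshold 0.05). This filter stood in for the study's filter on TPM. CPM are TMM-scaled, log2 CPM have a prior count of 2, and TPM use exon lengths of GENCODE M21 on mm10. Members with an unadjusted p under 0.05 and the core regulators are given in every tumor, and of other lists up to 3 genes with the smallest p. The members and lists were chosen with earlier results of these data known. Near-identical copies were searched with blastn 2.17.0. Within each group no library was a repeat deposit of another, since the counts of every pair differed by more than counting noise (chi-square per degree of freedom at least 55.9 over genes with at least 20 counts). Pairs across the groups were not compared in this way. A count of 0 allows up to 3 counts, for counting error only, and reads carried no molecular identifiers. On simulated counts of this size and depth (16051 genes tested) limma found 25 of 89 genes set to a 2-fold change and 76 of 107 set to a 4-fold change, with 5 of its 106 calls false, and DESeq2 1.42.0 made 49 false calls of 191. Alternatives were edgeR's quasi-likelihood test, DESeq2, other scalings and filters, weights per library, a replicate block, the sample number as a covariate and leaving out tumors.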

Additional observations from a re-analysis of the deposited data

Results flagged for a closer look

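Of 86 groups of values searched (the tested members in each genotype, and the mean deviation of each branch in each genotype), 9 held a tumor whose gap to its nearest neighbor exceeded 0.71 of the group's range, where chance gives about 1 in 20, or 4.3. Of the 9, 5 concerned KP 1 and 2 concerned KP 5. The 4.3 holds for independent groups, whereas these groups share tumors and the branch means average the same members. The 9 therefore cannot be read as an excess. KP 1 stood below the other KP tumors for Hsp90b1 at 9.16 log2 CPM (others 9.913 to 9.999), for Canx at 8.29 (others 8.69 to 8.76), for Xbp1 at 7.02 (others 7.77 to 8.00) and for Sesn2 at 3.63 (others 4.61 to 4.87). The mean deviation of the ER chaperone branch in KP 1, -0.5005, stood apart in the same way. KP 5 stood above its group for Trib3 at 4.92 log2 CPM (others 3.79 to 4.05) and below it for Asns at 4.89 (others 6.03 to 6.39), 2 targets of the same factor. In KPG1, Sesn2 was low in KPG1 5 at 4.51 (others 4.93 to 4.98), and the mean deviation of the ER chaperone branch was low in KPG1 3 at -0.2122.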

How the results depend on the processing

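The median log2 fold change of the ATF4 branch stayed below 0 in every setting run, from -0.21 to -0.04, and that of the ER chaperone branch stayed above 0 (0.03 to 0.19) except without KP 1 and KP 5, a setting added after seeing the data, where it was -0.01. No member passed the adjusted threshold in the main limma fit, 2 passed in DESeq2, 3 with a weight per library and 0 to 2 when single tumors were left out. Over all genes 28 passed, against 548 in DESeq2, 43 with no filter, 228 with weights, 5 with the replicate block, 8 with the sample number as a covariate, 51 without KP 1 and KP 5, and 4 to 294 when single tumors were left out, with 294 without KP 5. ATF4 branch members with an unadjusted p under 0.05 numbered 3, but 5 with weights and 7 without KP 1 and KP 5. They numbered 3 to 6 when single tumors were left out, with 6 without KP 5. In DESeq2, with upper-quartile factors, with a mean TPM of at least 20 and with the sample number as a covariate they numbered 4. With the sample number these were Ppp1r15a, Trib3 and Atf5, fitted lower, and Mthfd2, fitted higher. Ddit3 and Gdf15 were not among them. Over all settings Atf5 reached -0.82 and Mthfd2 0.63. The share of all genes with such a p was 11.6% with all tumors, 19.1% with weights, 16.6% without KP 1 and KP 5, and 18.6% without KP 5. It was 14% in DESeq2, 11.6% with upper-quartile factors, 12.4% with a mean TPM of at least 20 and 9.91% with the sample number. In the ER chaperone branch members with such a p numbered 1, but 0 with the replicate block or the sample number, 2 without KP 1 and KP 5, and 0 to 3 when single tumors were left out. With the sample number as a covariate Ddit3 was at -0.14, Gdf15 at -1.18 and Ppp1r15a at -0.68, none past the adjusted threshold. The causes were not tested. Deviations of tumors with the same replicate number had r from -0.161 to 0.076, and those of tumors with different numbers from -0.148 to 0.213. This check cannot exclude a shared effect smaller than the spread between tumors. The main fit did not pair them. Slc2a1 passed the threshold in DESeq2 (log2 fold change -1.04), with weights (-1.13), without KP 1 and KP 5 (-1.29) and without KP 5, with a range of -1.14 to -0.92 over single tumors left out. It did not pass with the replicate block (-1.01, limma adjusted p 0.176) or with the sample number as a covariate (-0.88, limma adjusted p 0.371).

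Of the 41 tested members 17 kept their direction in all settings run for them, and 24 changed it in at least 1. The values on the other side of 0 were -0.034 for Aldh18a1, -0.0052 for Dnajb11 and -0.057 for Mthfd2 in DESeq2. In edgeR they were -0.019 for Aldh18a1 and -0.044 for Mthfd2. Aldh18a1 was at -0.0047 with RLE factors and at -0.0038 with a mean TPM of at least 20, and Eif2ak4 at 0.00061 with no filter. With weights Cebpg was at 0.070, Eif2ak4 at 0.10, Hyou1 at -0.021, Mthfd2 at -0.15 and Ppp1r15b at 0.024. With the sample number as a covariate Asns was at 0.18, Chac1 at 0.079, Dnajb11 at -0.0099, Dnajb9 at -0.48, Eif2ak3 at -0.30, Manf at 0.039, Pdia3 at -0.10 and Psat1 at 0.30. Without KP 1 and KP 5, Aldh18a1 was at -0.078, Atf6 at -0.016, Calr at -0.065, Cebpg at 0.092, Creld2 at -0.17, Dnajb11 at -0.015, Eif2ak4 at 0.083, Ern1 at -0.00074, Hyou1 at -0.20, Mthfd2 at -0.33, Pycr1 at -0.12, Sdf2l1 at -0.14 and Shmt2 at -0.082. When single tumors were left out the ranges that held both signs were -0.33 to 0.032 for Psat1, -0.10 to 0.26 for Shmt2, -0.23 to 0.23 for Mthfd2, -0.082 to 0.15 for Aldh18a1, -0.090 to 0.17 for Pycr1, -0.20 to 0.10 for Cebpg, -0.035 to 0.15 for Eif2ak3 and -0.11 to 0.12 for Eif2ak4. In the ER chaperone branch they were -0.21 to 0.058 for Hspa5, -0.019 to 0.19 for Calr, -0.060 to 0.45 for Dnajb9, -0.095 to 0.11 for Dnajb11, -0.10 to 0.26 for Creld2, -0.18 to 0.010 for Manf, -0.045 to 0.19 for Hyou1, -0.21 to 0.15 for Herpud1 and -0.26 to 0.016 for Xbp1. Depth limits only Fgf21, whose counts were at most 12.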
